A study of Macaca fascicularis with 2 samples.

Results

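The dystrophin-glycoprotein complex was described in gastrocnemius, a calf muscle, of the cynomolgus macaque Macaca fascicularis through 8 of its genes. They were taken by symbol, and the counts of all transcript models of a gene were summed. The genes are DMD, UTRN, DAG1, SGCA, SGCB, SGCD, SNTB1 and DTNA. All 8 were found, out of 28162 genes in the files. All 8 also passed the filter on low values, a mean of at least 1 scaled CPM over both libraries, where CPM is counts per 1000000 of the scaled library. The 13703 genes that passed are called tested genes here. RNA sequencing gave 1 library labelled non-lean, from a high fat diet, and 1 labelled lean, from a chow diet. The series title concerns obese skeletal muscle, and the labels give no age, sex, number of animals or duration of diet. The labels also do not say whether a library holds 1 animal or a pool.

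The complex ties the actin cytoskeleton of the muscle fibre to the basement membrane. Dystrophin, encoded by DMD, binds actin and the transmembrane beta chain of dystroglycan, whose alpha chain outside the cell carries sugar chains that bind laminin. Sarcoglycans form a subcomplex in the membrane beside dystroglycan, and syntrophins and dystrobrevins sit under the membrane and hold signalling proteins such as neuronal nitric oxide synthase. Utrophin is a relative of dystrophin that in adult muscle is concentrated at neuromuscular and myotendinous junctions. Loss of dystrophin causes Duchenne muscular dystrophy in humans, and loss of a sarcoglycan causes forms of limb-girdle muscular dystrophy.

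Depth was 12732003 counts and 20689 detected genes in the non-lean library, against 15983371 counts and 20683 genes in the lean library. The labelled tissue was checked on muscle fibre markers. Skeletal actin ACTA1 had a scaled CPM of 60127 in the non-lean and 80371 in the lean library, and 9 of 10 markers of the fibre were matched and tested. Each group has a single library, so replicate spread is unknown and the groups were not tested against each other. The ratios compare libraries, and animal, sampling, preparation, diet and body condition cannot be told apart. Intervals in brackets are 95% counting intervals from the exact binomial split of the counts, and cover counting error only. In such bulk samples, fewer cells of a type and less RNA per cell cannot be told apart.

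DMD and the delta-sarcoglycan gene SGCD were the members furthest apart between the libraries, both lower in the non-lean library. The other 6 members stayed within 1.14-fold in either direction. No member was at least 2-fold higher or at least 2-fold lower, a size that 12.1% of tested genes reached with an interval that excluded 0, 4.9% higher and 7.16% lower. Intervals lay below 0 for 4 members, above 0 for 1, and held 0 for 3, where 28.8% of all tested genes had intervals below 0 and 25.7% above. Intervals are narrower for well counted genes. Among the 3919 tested genes with at least the 809 summed counts of UTRN, the least counted member, 39.1% lay below 0 and 36.5% above. The median log2 ratio of the members was -0.11, against -0.011 for all tested genes, whose quartiles were -0.39 and 0.34. Together the 8 genes took 0.0961% of all unscaled counts in the non-lean library (0.0944 to 0.0978, exact 95% Clopper-Pearson bounds). In the lean library they took 0.0965% (0.0950 to 0.0980), and the intervals of the 2 shares overlap. These shares are relative to total counts, so they correspond to total-count scaling, which lifts every ratio by 0.14 over the main scaling. Scaled, the members summed to 915 CPM in the non-lean and 1013 CPM in the lean library.

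**Figure D1:**
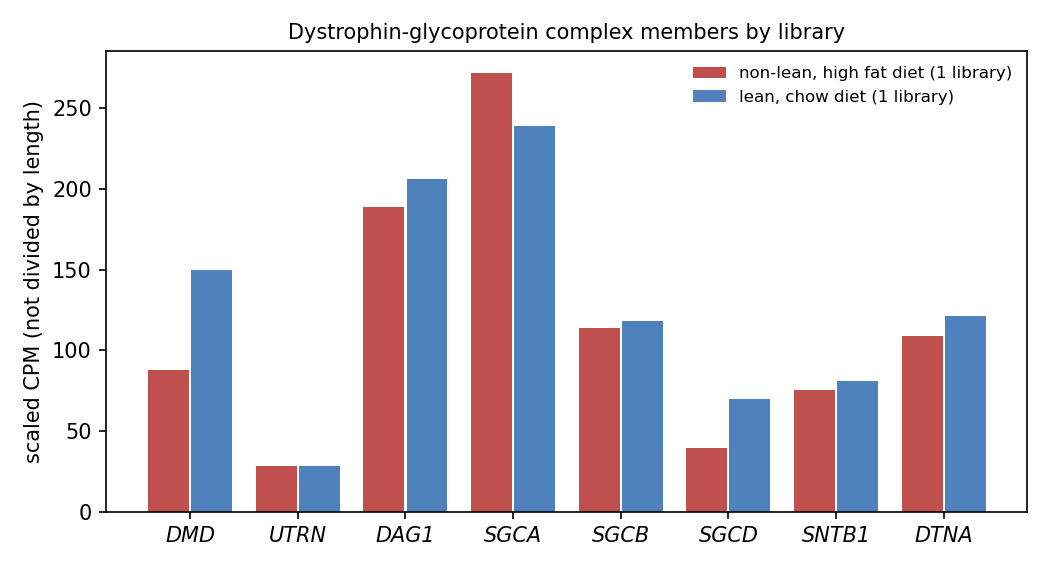
Scaled CPM (vertical axis, from 0, not divided by length) of the 8 members in the non-lean library (left bar of each pair) and the lean library (right bar), 1 library each and so without error bars. DMD and SGCD stand lower in the non-lean library, at 88.0 against 149.8 and 39.8 against 70.0 CPM, while the bars of the other members are close to each other.

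Dystrophin, the actin-binding rod of the complex, had 1177 counts in the non-lean and 2280 in the lean library. Scaled, it stood at 88.0 CPM in the non-lean and 149.8 CPM in the lean library, which is 1.70-fold lower, a log2 ratio of -0.77 [-0.87, -0.67]. Only 11.7% of tested genes had a lower ratio. Its relative utrophin, UTRN, did not stand apart, with 381 counts in the non-lean and 428 in the lean library and 28.5 CPM in the non-lean and 28.1 CPM in the lean library. The log2 ratio of UTRN was 0.019 [-0.18, 0.22], so a difference of up to about the size of these bounds was not detectable at this depth. The non-lean library held 309 counts of DMD per 100 of UTRN and the lean library 533. This quotient does not depend on how the libraries are scaled, and its log2 change was -0.79 [-1.01, -0.56].

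Dystroglycan, DAG1, whose precursor is cut into the laminin-binding alpha chain and the membrane-spanning beta chain, had 2525 counts in the non-lean and 3139 in the lean library. Scaled, this was 189 CPM in the non-lean and 206 CPM in the lean library, a log2 ratio of -0.13 [-0.20, -0.051]. The sign of this small difference depends on the scaling, as the ratio was 0.014 [-0.062, 0.090] with total counts, a scaling that lifts every ratio by 0.14.

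The sarcoglycans did not move as a unit. SGCA, the alpha-sarcoglycan gene, had 3630 counts in the non-lean and 3632 in the lean library. Scaled, this was 271 CPM in the non-lean and 239 CPM in the lean library, a log2 ratio of 0.19 [0.12, 0.25], and SGCA was the only member whose interval lay above 0. SGCB, for beta-sarcoglycan, had 1523 counts in the non-lean and 1799 in the lean library. Its 114 CPM in the non-lean and 118 CPM in the lean library gave a ratio of -0.054 [-0.15, 0.046] that held 0. SGCD, for the delta chain that assembles with the beta chain, had 532 counts in the non-lean and 1066 in the lean library. Its 39.8 CPM in the non-lean and 70.0 CPM in the lean library were 1.76-fold apart, a log2 ratio of -0.82 [-0.97, -0.66], and 10.5% of tested genes had a lower one. Per 100 counts of SGCB there were 238 counts of SGCA in the non-lean and 202 in the lean library, a log2 change of 0.24 [0.12, 0.36]. Set against SGCD, the change of SGCA was 1.002 [0.84, 1.17] and that of SGCB 0.76 [0.58, 0.95].

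Under the membrane, SNTB1, for the adaptor beta-1-syntrophin, had 1010 counts in the non-lean and 1232 in the lean library. Its 75.5 CPM in the non-lean and 80.96 CPM in the lean library gave a log2 ratio of -0.10 [-0.22, 0.021]. DTNA, for alpha-dystrobrevin, which binds dystrophin and syntrophins, had 1458 counts in the non-lean and 1847 in the lean library. Its 109 CPM in the non-lean and 121 CPM in the lean library gave a ratio of -0.15 [-0.25, -0.055], and of -0.013 [-0.11, 0.087] with total counts. Both genes lay close to DAG1 and SGCB.

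**Figure D2:**
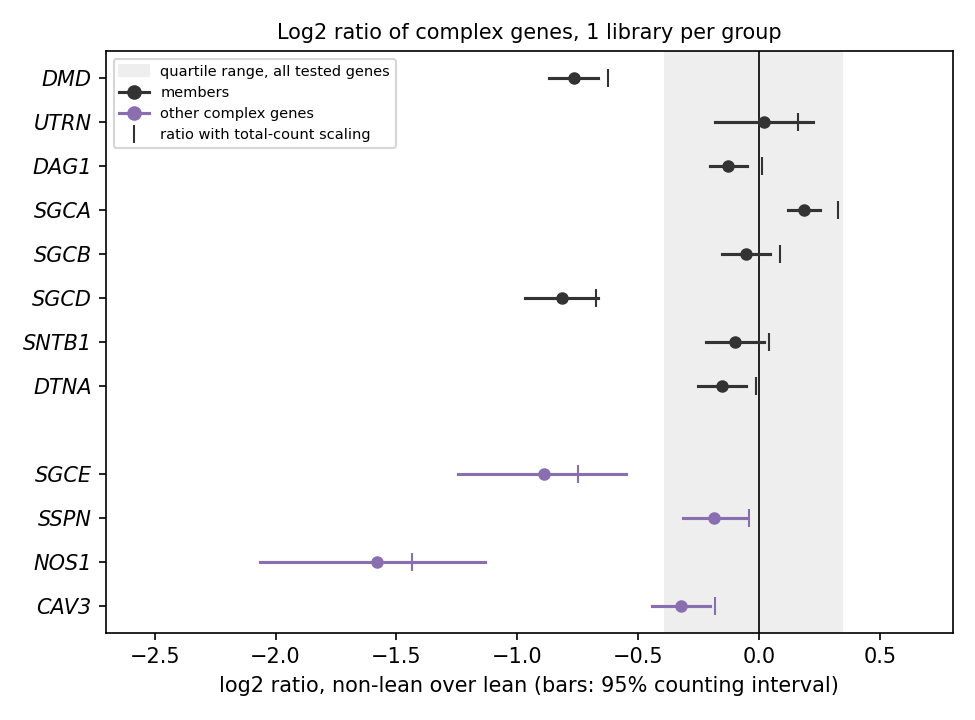
Log2 ratio, non-lean over lean (horizontal axis), for the 8 members and, below them, 4 other genes of the complex. Points are ratios, horizontal bars 95% counting intervals, ticks the ratio with total-count scaling, and the grey band the quartile range of all tested genes, from -0.39 to 0.34. DMD, SGCD, SGCE and NOS1 lie left of the band, at -0.77, -0.82, -0.89 and -1.58.

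Setting members against each other removes the scaling of the libraries. Of the 28 pairs of members, the interval of the log2 change of their quotient excluded 0 for 16 and held 0 for 12, without adjustment for the number of pairs. The share among pairs of other genes of like depth was not computed, so this count does not set the members apart. DMD and SGCD did not differ from each other beyond counting error, at 0.049 [-0.13, 0.23], although the interval allows a modest difference. Each of them was lower than each of the other 6 members, which accounts for 12 of the 16. The other 4 were SGCA against DAG1, SGCB, SNTB1 and DTNA, with the change of DAG1 relative to SGCA at -0.31 [-0.41, -0.21]. Against UTRN, SGCA gave an interval that held 0, as the change of UTRN relative to SGCA was -0.17 [-0.38, 0.047].

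**Figure D3:**
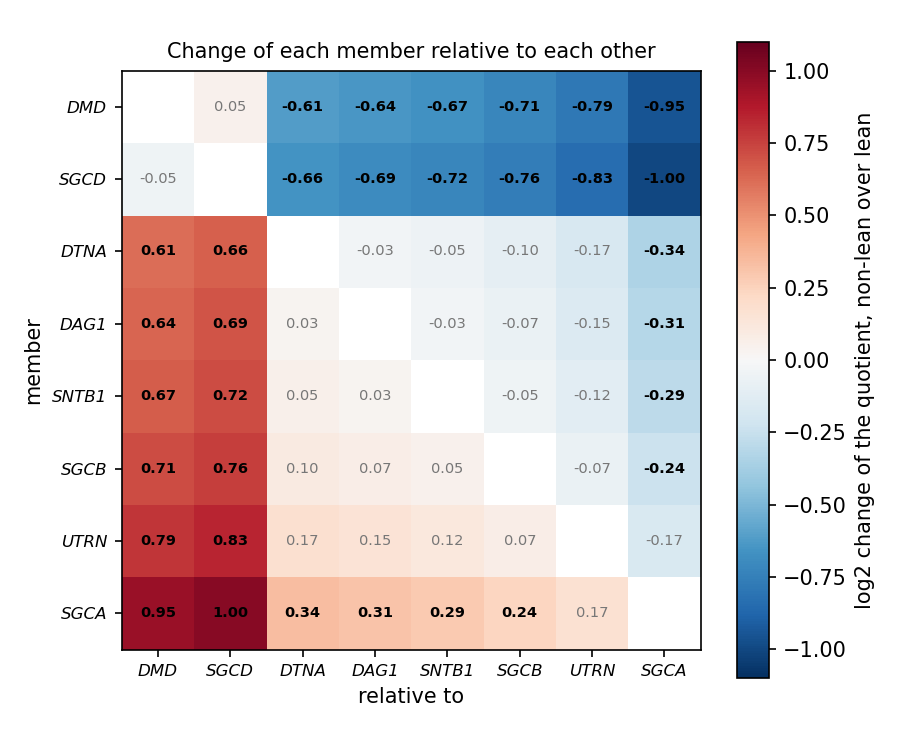
Log2 change, non-lean over lean, of the counts of each member (rows) relative to each other member (columns), with colour for the value. Bold numbers mark pairs whose 95% counting interval excludes 0, which holds for 16 of 28 pairs. The share among pairs of other genes was not computed. The upper rows, DMD and SGCD, are negative against each of the other 6 members, with DMD at -0.61 against DTNA and -0.95 against SGCA.

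The transcript models show how the summed values arose. SGCA, SGCB and SNTB1 have 1 model each in the files, so their counts are not divided among models. DMD has 18 models, of which 11 had at least 10 expected counts in the non-lean and 6 in the lean library. The leading model in both, XM_015443669.1, had 466 expected counts in the non-lean and 1218 in the lean library. That is 39.6% of the gene in the non-lean library (36.8 to 42.5) and 53.4% in the lean library (51.3 to 55.5). The next model of the lean library, XM_005593249.2, was further apart, with 88.5 expected counts in the non-lean and 592 in the lean library, or 7.52% of the gene in the non-lean (6.04 to 9.13) and 26.0% in the lean library (24.2 to 27.8). In the other direction, 5 models with at least 10 expected counts in the non-lean library had less than 1 in the lean library. They held 466 expected counts, 39.6% of the gene, in the non-lean library and 0.48 in the lean library. The largest of them, XM_015443670.1, had 147 expected counts in the non-lean and 0 in the lean library. It was the second model of the gene in the non-lean library, at 12.5% (10.7 to 14.5).

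UTRN was carried mainly by XM_015448768.1 among its 14 models, with 331 expected counts in the non-lean and 354 in the lean library, or 87.0% of the gene in the non-lean (83.1 to 90.1) and 82.7% in the lean library (78.8 to 86.2). SGCD was carried by XM_015452192.1 among 6 models. This model had 501 expected counts in the non-lean and 1013 in the lean library, so the difference of SGCD lay in it. DAG1 has 17 models. Its leading model XM_005547128.2 had 1385 expected counts in the non-lean and 1450 in the lean library, a log2 ratio of 0.12, opposite in sign to the gene. A single model, XM_005547131.2, had 93.8 expected counts in the non-lean and 706 in the lean library. DTNA has 40 models, of which 28 had 0 in both libraries. Its leading model XM_005586916.2 had 585 expected counts in the non-lean and 898 in the lean library, and XM_015440018.1 had 198 in the non-lean and 0 in the lean library. Values per model are estimates that divide reads among overlapping models. Their intervals count reads only and do not hold the error of that division, which was not tested.

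**Figure D4:**
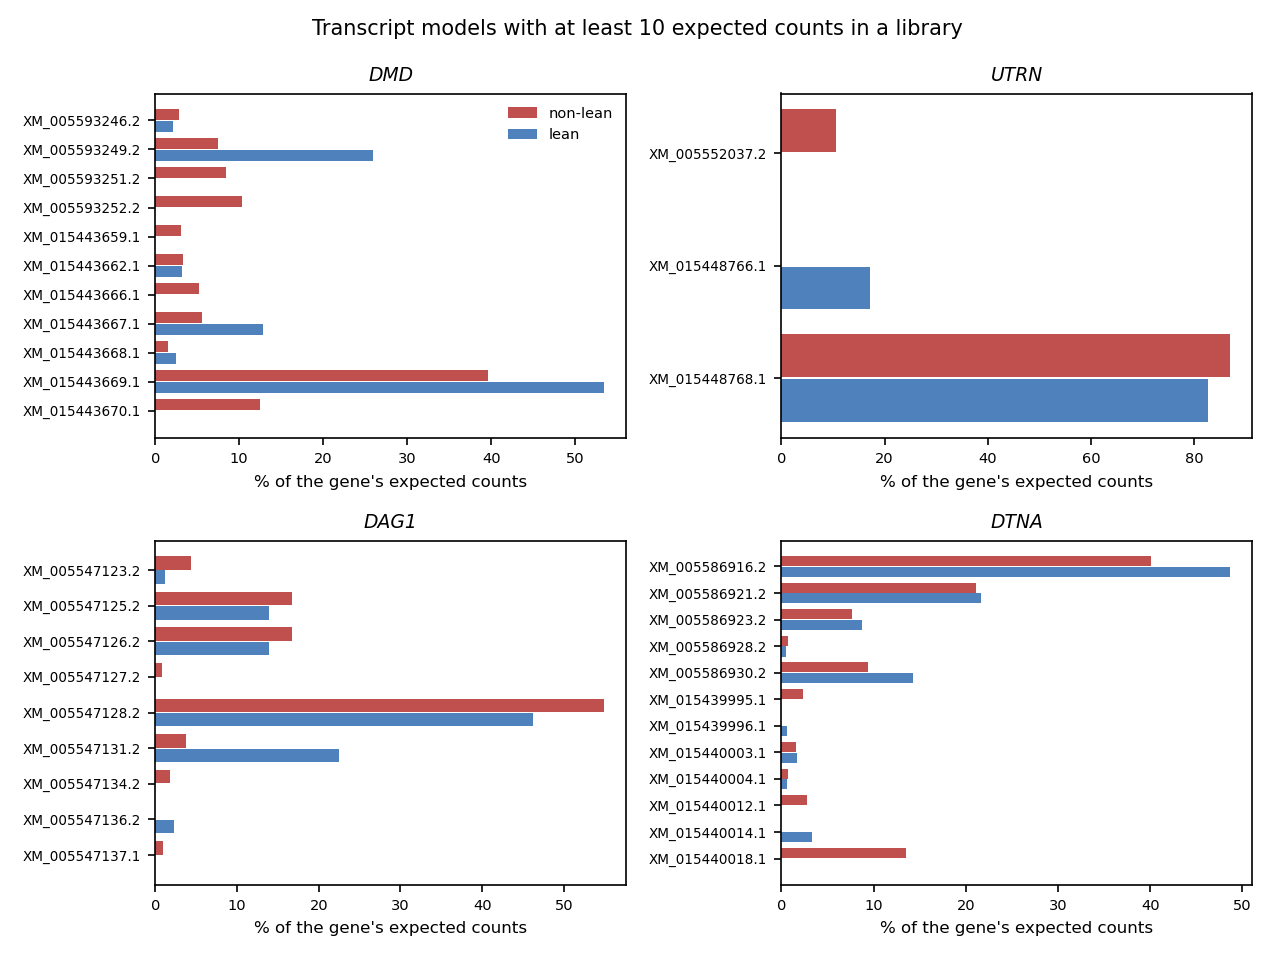
Share of each gene's expected counts (horizontal axis, percent) for the transcript models of DMD, UTRN, DAG1 and DTNA with at least 10 expected counts in 1 library, the non-lean library above the lean library in each pair. Leading models are the same in both libraries, at 39.6% against 53.4% for DMD, and several models have counts in 1 library only.

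No strand-marking step is named in the protocol, so reads of a gene that overlaps a member on the other strand cannot be told apart from the member's. In the T2T-MFA8v1.1 gene table of RefSeq, which may differ from the build behind the files, 11 genes overlapped 6 of the members, and 1 of the 11 had a row in the files. This is LOC107128113, a long non-coding RNA gene that overlaps DTNA in that table, and it had 328 counts in the non-lean and 142 in the lean library. It was singled out with its counts already known. Overlap was taken by position alone, and whether any of the 11 genes lies on the other strand was not checked. Transcript lengths were not used here, so CPM values are not compared between members.

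Of 12 other genes of the complex, 6 were tested. Intervals lay below 0 for 5 of the 6 and above 0 for none, where 28.8% of all tested genes lay below 0 and 25.7% above. The median log2 ratio of the list was -0.33, against -0.011 for all tested genes. NOS1, neuronal nitric oxide synthase, which is held at the membrane by the complex, was the lowest. It had 52 counts in the non-lean and 178 in the lean library. This was 3.89 CPM in the non-lean and 11.7 CPM in the lean library, and NOS1 was 2.99-fold lower at -1.58 [-2.06, -1.14]. It was the only gene of the list past 2-fold. SGCE, for epsilon-sarcoglycan, a relative of the alpha chain found in many tissues, had 104 counts in the non-lean and 220 in the lean library, a ratio of -0.89 [-1.25, -0.55]. Caveolin-3, CAV3, was at -0.32 [-0.44, -0.20] and sarcospan, SSPN, at -0.18 [-0.31, -0.056]. With total counts 4 genes of the list lay below 0 and 1 above, and the interval of SSPN held 0, at -0.043 [-0.17, 0.086]. With the leading transcript only, SGCE turned to 0.013 and SSPN to 0.29. Relative to DMD, NOS1 was lower still, since the change of DMD relative to NOS1 was 0.82 [0.36, 1.31]. SNTB2, DTNB, SNTG2 and DRP2 had between 0 and 14 counts per library and were not tested. SGCZ and SNTG1 had 0 counts in both libraries, which allows up to 0.224 CPM in the non-lean and 0.197 CPM in the lean library at 3 counts each.

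Genes that build the sugar chains of alpha-dystroglycan had intervals on both sides of 0. Of 18 listed, 17 were tested, with intervals above 0 for 6, below 0 for 5 and holding 0 for 6, which is near the 25.7% above and 28.8% below among all tested genes. Their median was 0.19, and none passed 2-fold. The O-mannosyltransferases that begin the chain were higher in the non-lean library, POMT1 with 219 counts in the non-lean and 129 in the lean library at 0.95 [0.63, 1.28] and POMT2 at 0.53 [0.22, 0.85]. Of 5 genes that make mannose donors or their lipid carrier, DPM1 at 0.71, GMPPB at 0.57 and DPM3 at 0.46 were higher, while the intervals of DOLK, 0.27 [-0.059, 0.60], and DPM2, 0.098 [-0.24, 0.44], held 0. The transferases POMGNT2 at -0.71 [-0.997, -0.43], POMGNT1 at -0.38 and B3GALNT2 at -0.34 were lower, but POMGNT1 turned to 0.34 with the leading transcript only. With total counts 8 genes lay above 0 and 4 below.

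Of 10 matrix ligands and basement membrane partners, all tested, intervals lay below 0 for 5, above 0 for 1 and held 0 for 4. Among all tested genes 28.8% lay below 0 and 25.7% above. The median of the 10 ligands and partners was -0.23. LAMA2, the laminin alpha-2 chain of the muscle fibre's basement membrane, had 493 counts in the non-lean and 669 in the lean library, at -0.25 [-0.42, -0.084]. LAMC1, the gamma-1 chain that joins it, was at -0.64 [-0.76, -0.51], and LAMB2 at -0.15 [-0.24, -0.060]. LAMA4, a laminin chain of blood vessels, was the lowest at -0.95 [-1.26, -0.65]. Agrin, AGRN, was at -0.24 [-0.51, 0.025] and perlecan, HSPG2, at -0.050 [-0.12, 0.022], and EGFLAM (pikachurin), a dystroglycan ligand known from the mouse retina, was higher at 0.30 [0.076, 0.53]. With total counts 3 lay below 0 and 2 above, and the interval of LAMA2 held 0, at -0.11 [-0.28, 0.058]. The interval of LAMB2 then also held 0, at -0.0083 [-0.099, 0.082]. With the leading transcript only, LAMA2 turned to 0.47 and EGFLAM to -0.31.

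Neighbours of the complex at costameres, the rib-like attachment sites of the outer myofibrils, and in membrane repair were lower nearly throughout. Of 24 listed genes 22 were tested. Intervals lay below 0 for 21 and above 0 for none, against 28.8% below and 25.7% above among all tested genes. Many genes of this list are well counted. Among the 3919 tested genes with at least 809 summed counts, 39.1% lay below 0 and 36.5% above. The median of the list was -0.47. Filamin C, FLNC, which links actin to sarcoglycans and integrins, had 10202 counts in the non-lean and 26279 in the lean library, at -1.18 [-1.21, -1.15]. TLN2, a talin of mature muscle, was at -1.16 [-1.31, -1.01], and these 2 genes passed 2-fold. Plectin, PLEC, was at -0.89 and DES, for the intermediate filament desmin, at -0.088, which became 0.054 with total counts. MLIP was at -0.091 [-0.19, 0.0056]. With total counts 18 genes lay below 0 and 1 above.

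Genes of the neuromuscular junction, where utrophin is concentrated, had a median of 0.39 over 12 tested of 13. Intervals lay above 0 for 4, below 0 for 2 and held 0 for 6, against 25.7% above and 28.8% below among all tested genes, so these counts do not set the list apart. CHRNA1, the alpha subunit of the muscle acetylcholine receptor, had 382 counts in the non-lean and 85 in the lean library and was 5.09-fold higher at 2.35 [2.01, 2.71]. The fetal subunit CHRNG had 85 counts in the non-lean and 54 in the lean library, at 0.84 [0.33, 1.36]. Acetylcholinesterase, ACHE, was at 0.51 [0.39, 0.63] and the abundant subunit CHRNB1 at 0.036 [-0.063, 0.13]. RAPSN, which clusters the receptor, was at -0.39 and LRP4, the agrin receptor, at -0.93 [-1.38, -0.51]. UTRN at 0.019 lay below the median of these genes.

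Markers of other cell types differed between the libraries, and their part in the members' values was not tested. No matched marker was at 0 in both libraries. Beside the marker counts that follow, 28.8% of all tested genes had intervals below 0 and 25.7% above. Fibroblast markers had intervals below 0 for 7 of 8 and a summed level of 490 CPM in the non-lean and 1089 CPM in the lean library, with FBN1 lowest at -2.23. Macrophage markers had 5 of 6 below 0, with 26.4 CPM in the non-lean and 73.5 CPM in the lean library. Endothelial markers had 4 of 6 below 0, with 185 CPM in the non-lean and 244 CPM in the lean library. Smooth muscle and pericyte markers, of a cell type also known to make SGCD and SGCE, had 3 of 7 below 0 and 1 above, with 223 CPM in the non-lean and 268 CPM in the lean library and a median of -0.10. Adipocyte markers had 3 of 4 tested below 0, ADIPOQ at -3.55, CIDEC at -2.65 and PLIN1 at -2.64, and a median of -2.64. ADIPOQ had 3 counts in the non-lean and 46 in the lean library. FABP4 lay above 0, at 0.26 [0.053, 0.47]. The summed level of the adipocyte markers was 32.1 CPM in the non-lean and 45.3 CPM in the lean library. Of that sum FABP4 held 29.0 CPM in the non-lean and 24.2 CPM in the lean library. Intervals lay below 0 for Schwann and nerve markers in 2 of 3 tested, and for satellite cell markers in 2 of 3. Of the 9 fibre markers, 7 were below 0 and 2 above. MYH1, a fast myosin, was lowest at -0.93 and the slow troponin TNNT1 highest at 1.11.

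**Figure D5:**
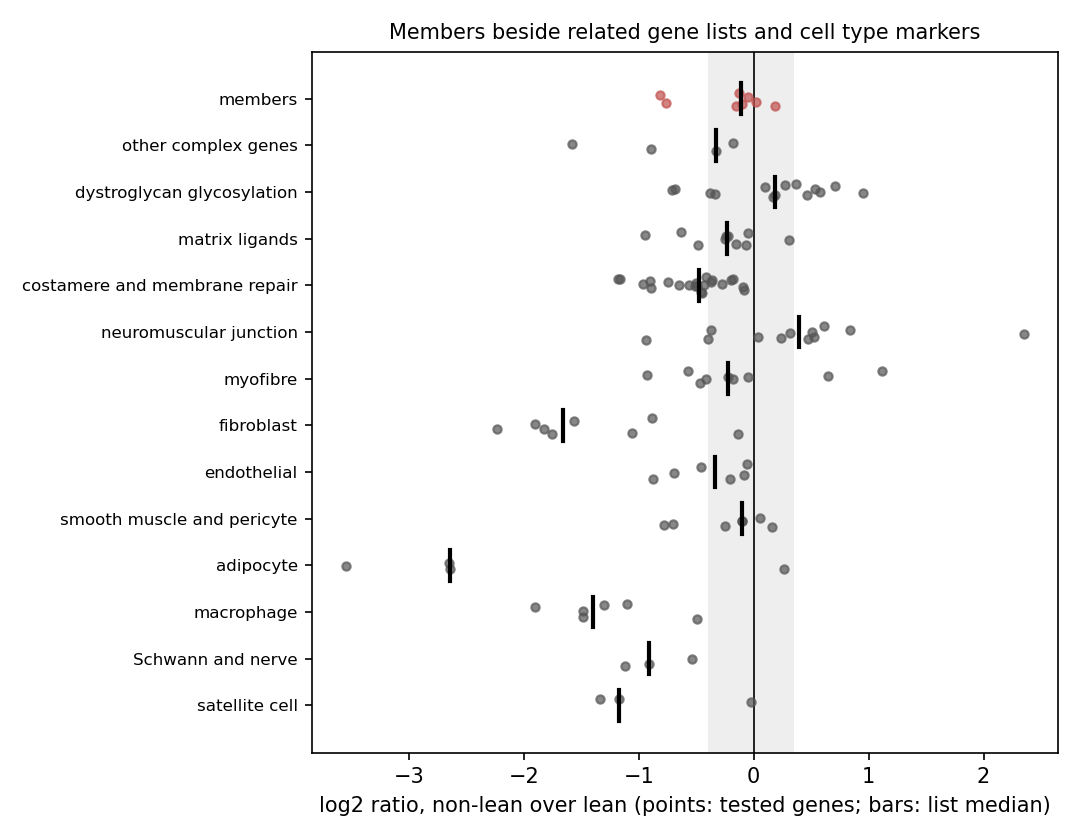
Log2 ratio, non-lean over lean (horizontal axis), for the tested genes of each list, the 8 members in the top row. Points are the genes reported here, spread vertically at random, black bars are medians of the whole lists, and the grey band is the quartile range of all tested genes. The members' median of -0.11 lies within the band, the costamere median of -0.47 and the fibroblast median of -1.66 lie left of it, and the neuromuscular junction median of 0.39 lies right of it.

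Among the listed genes reported here with a mean CPM within 4-fold, the ones whose log2 ratio was nearest to a member's were PDGFRB for both DMD (-0.78 against -0.77) and SGCD (-0.82), DPM2 for UTRN, CHRNB1 for SGCA and HSPG2 for SGCB. DPT was nearest to DAG1, TAGLN to SNTB1 and LAMB2 to DTNA. With 2 libraries, likeness is only the difference of log2 ratios, which was at most 0.15 here.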

How the data were processed

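The authors deposited expected counts, which are estimated read counts per RefSeq transcript that need not be whole, for 76183 transcripts per library, per the file headers. Tools listed in the submitters' processing notes, with no role, are RSEM 1.3.3, STAR 2.7.8a and Trim Galore 0.6.6. Build and annotation: not given in the sources used here. Counts were summed per gene and rounded. Of 28162 gene symbols, 24 had become dates and were left so. Of 130 listed genes 129 were matched, 7 of them through RefSeq numbers or accessions of T2T-MFA8v1.1, and MYH7 was not. Scaling used the TMM method of edgeR 4.0.16 (R 4.3.3), with factors of 1.05 for the non-lean and 0.952 for the lean library. The log2 ratio used a prior count of 0.5. Its interval is Clopper-Pearson, in scipy 1.17.1, with numpy 2.4.6, pandas 2.3.3 and Python 3.11.15, and quotients of genes have exact conditional odds ratio intervals. Figures used matplotlib 3.10.9. The interval step was tested on simulated data. Since PCR copies were not separated by molecular identifiers, reads are not independent molecules, and every interval or floor holds counting error alone. Alternatives were total counts, DESeq2 1.42.0 size factors, another prior count, other filters, coding transcripts only, the leading transcript only and unrounded counts, keeping the other settings. A planned level per transcript length and a planned comparison of log2 ratios by length were not computed, as lengths were not used here. Ratios of the members were therefore not set against those of genes of like length.

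Members and lists were chosen with earlier results of these data known. All members and any detected gene of the complex, glycosylation and ligand lists could be named. From other lists the rule took the 3 most abundant and the 2 highest and 2 lowest tested genes. It also took models of members with at least 10 counts in 1 library, and for each member the listed gene of nearest ratio. For 5 listed genes no own value is reported here. Their lists' counts and medians include them.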

Additional observations from a re-analysis of the deposited data

How the results depend on the processing

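DMD, SGCD and SGCA kept their direction and intervals that excluded 0 under every alternative run, with ratios from -1.20 to -0.63 for DMD, -0.85 to -0.67 for SGCD and 0.16 to 0.33 for SGCA. With total counts the members' median became 0.028, against 0.13 for all tested genes, and 2 members, not 4, had intervals below 0. Shares of all tested genes with intervals above or below 0 under total counts are not given here. List counts under that scaling therefore have no such background. Of the members, DAG1 turned to 0.014, SGCB to 0.088 and SNTB1 to 0.042, because total counts add 0.14 to every ratio. The intervals of SGCB and SNTB1 held 0 in the main run and with total counts. DES turned to 0.054. Genes at least 2-fold higher then numbered 930 and lower 731, 56.0% higher, against 672 and 981, 40.7% higher. With DESeq2 size factors, which lower every ratio by 0.03 and changed none of these counts by over 1.5 times, SNTB1 also lay below 0. Without the filter 1081 genes were at least 2-fold higher. At a mean CPM of at least 5, 230 were higher and 484 lower, as fewer genes were tested. With the leading transcript only, 1 member (DMD) was at least 2-fold lower, 2 had intervals above 0, and 1225 genes were higher and 1682 lower. Ratios that turned there, since reads of other transcripts are dropped, were DAG1 (0.12), EGFLAM (-0.31), LAMA2 (0.47), PECAM1 (0.45), POMGNT1 (0.34), SGCE (0.013), SSPN (0.29), TEK (0.37) and VWF (0.098). Prior count, coding transcripts and rounding moved no summary by over 1.5 times. No paired analysis was possible because each group has 1 library, and no library could be left out.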
